A study of Mus musculus with 12 samples.

Results

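The 10 genes described here belong to the YAP/TAZ arm of the Hippo pathway. They were taken by gene symbol from the 55471 genes of the count table: the coactivators *Yap1* and *Wwtr1* (the gene of TAZ), the transcription factors *Tead1*, *Tead2* and *Tead3*, the kinases *Lats1* and *Lats2*, the angiomotin family genes *Amotl1* and *Amotl2*, and the target gene *Ankrd1*. RNA-seq was done on primary hippocampal neuron cultures, prepared from mixed-sex CD1 mouse embryos at E17 and kept in Neurobasal medium with B27. The cells carried no engineered allele (genotype WT). All cultures received gapmers, which are antisense oligonucleotides that direct RNase H to a transcript, in lipid nanoparticles at DIV 7 (days in vitro), and RNA was isolated at DIV 10. The 6 control libraries had a gapmer without a known target and the 6 *Neuid* KD libraries had a gapmer against *Neuid* (Gm10419), a neuronal long noncoding RNA. The labels do not say whether the 6 libraries of a group came from separate cultures or litters, so p-values measure the spread between these libraries, which may be technical.

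In the Hippo pathway the kinases MST1 and MST2, encoded by *Stk4* and *Stk3*, act with the scaffold SAV1 to activate LATS1 and LATS2. The LATS kinases work with MOB1 and phosphorylate YAP and TAZ, which are then kept in the cytoplasm or degraded. Unphosphorylated YAP and TAZ enter the nucleus and bind TEAD factors to switch on genes of growth, adhesion and matrix. In brain, YAP and TAZ are best known from neural progenitors and astrocytes and are low in most neurons. Much of this regulation acts on the proteins, which RNA-seq does not measure.

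The core letters of the TEAD motif were looked up in the RefSeq promoter windows of the members (build GRCm38.p6), each reaching from 250 bases before a transcription start to 50 bases after it. The letters CATTCC, or GGAATG on the other strand, occurred in 6 of the 9 members with a window, compared with 15% of the 12703 tested genes with a window and 14.7% of all 32851 windows. Among the members that rose after *Neuid* KD, 2 of 4 with a window held the letters, and among the other members 4 of 5 did. A match is a description of the sequence, not a binding site. The windows of both coactivators, of the angiomotin pair that parted in expression and of the classical target *Ankrd1* are shown 5′ to 3′ on the gene's strand, with the motif letters in capitals. The *Yap1* window lies at chr9:8004547-8004846 (minus strand), that of *Wwtr1* at chr3:57575861-57576160 (minus strand), that of *Amotl1* at chr9:14614951-14615250 (minus strand), that of *Amotl2* at chr9:102717554-102717853 (plus strand) and that of *Ankrd1* at chr19:36119795-36120094 (minus strand).
Yap1: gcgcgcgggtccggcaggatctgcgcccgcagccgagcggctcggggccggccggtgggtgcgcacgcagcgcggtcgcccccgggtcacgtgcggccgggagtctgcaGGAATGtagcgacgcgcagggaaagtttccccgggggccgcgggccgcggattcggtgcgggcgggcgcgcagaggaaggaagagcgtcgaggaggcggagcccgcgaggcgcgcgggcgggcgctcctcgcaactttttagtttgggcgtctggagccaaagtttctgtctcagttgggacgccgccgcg
Wwtr1: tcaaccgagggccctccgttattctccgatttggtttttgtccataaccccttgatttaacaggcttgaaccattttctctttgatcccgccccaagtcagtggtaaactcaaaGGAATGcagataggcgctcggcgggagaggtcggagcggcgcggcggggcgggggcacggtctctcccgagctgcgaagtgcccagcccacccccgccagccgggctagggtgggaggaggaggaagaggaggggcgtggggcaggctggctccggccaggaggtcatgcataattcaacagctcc
Amotl1: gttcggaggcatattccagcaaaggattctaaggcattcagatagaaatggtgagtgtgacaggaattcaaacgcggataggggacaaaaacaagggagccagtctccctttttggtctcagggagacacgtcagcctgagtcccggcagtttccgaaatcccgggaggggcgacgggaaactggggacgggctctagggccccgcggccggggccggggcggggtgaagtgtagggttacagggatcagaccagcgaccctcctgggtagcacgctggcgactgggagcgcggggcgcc
Amotl2: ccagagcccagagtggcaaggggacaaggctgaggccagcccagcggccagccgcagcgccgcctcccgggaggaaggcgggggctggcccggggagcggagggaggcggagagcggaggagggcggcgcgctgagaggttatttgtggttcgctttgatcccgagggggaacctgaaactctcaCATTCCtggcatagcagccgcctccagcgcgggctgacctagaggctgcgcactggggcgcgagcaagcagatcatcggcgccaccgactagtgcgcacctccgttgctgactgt
Ankrd1: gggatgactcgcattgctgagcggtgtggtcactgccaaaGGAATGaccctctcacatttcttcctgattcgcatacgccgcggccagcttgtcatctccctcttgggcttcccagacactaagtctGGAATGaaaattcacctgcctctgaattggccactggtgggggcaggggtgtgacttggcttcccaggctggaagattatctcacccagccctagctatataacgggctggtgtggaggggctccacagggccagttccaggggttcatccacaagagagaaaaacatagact
The motif began 141 bases upstream of the start in *Yap1*, 136 bases upstream in *Wwtr1* and 65 bases upstream in *Amotl2*. *Ankrd1* held it at 210 and at 123 bases upstream, and no copy stood in the *Amotl1* window. That window lies inside the annotated span of *Amotl1* (chromosome 9, 14541966 to 14645056), so sequence at the gene's outer 5′ end was not looked at.

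The libraries held between 11152556 and 30914714 counted reads, with *Neuid* KD 1 the shallowest. *Neuid* fell from 28.4 ± 2.03 CPM (TMM-scaled read counts; SD, n = 6) in control to 8.05 ± 1.13 CPM (SD, n = 6) in *Neuid* KD, and the groups did not overlap. Reads on chemosensory receptor genes, taken as a measure of background, were at or above 100 CPM in 7 libraries (4 control, 3 *Neuid* KD) and under 100 CPM in 5 (2 control, 3 *Neuid* KD). Neuron markers were abundant in both groups, summing to between 6159 and 7241 CPM in the control group and between 6121 and 7269 CPM in *Neuid* KD. Astrocyte markers were present too, and all 9 tested of 10 were higher in *Neuid* KD, with a median log2 fold change of 1.25. Their summed level was 1686 to 2125 CPM in the control group and 3062 to 3724 CPM in *Neuid* KD. Of the 8 radial glia markers 6 were higher and 2 lower, and their sum went from between 911 and 1030 CPM to between 1200 and 1372 CPM. Within that sum the mean of *Fabp7* rose from 257 to 727 CPM, while that of *Vim* fell from 555 to 332 CPM. Of the 6 oligodendrocyte precursor markers 2 were higher, *Olig1* and *Olig2*, and the other 4 did not pass. The sum of all 6 was 96.3 to 115 CPM in the control group and 247 to 292 CPM in *Neuid* KD. Most of that sum came from *Olig1*, whose mean rose from 78.2 to 216 CPM. Among the markers of microglia (4 of 8 tested), endothelial cells (6 of 8), fibroblasts and mural cells (10 of 10) and dividing cells (6 of 6), none passed edgeR's quasi-likelihood test at adjusted p under 0.05. At an unadjusted p under 0.05 and with DESeq2 1 dividing-cell marker was lower, and limma-voom called none. Among neuron markers 1 of 11 was higher, and among oligodendrocyte markers 1 of 4 tested was lower. No marker in any list was at 0 in all libraries. The part of the glial markers in the values below was not tested, and in bulk RNA a change in the number of cells of a type and a change in RNA per cell cannot be told apart.

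Genes were tested with edgeR's quasi-likelihood test over the 19578 genes that passed its filter on low counts, with Benjamini-Hochberg adjustment over all of them. Of the 10 members, 9 were tested, 5 were higher in *Neuid* KD at adjusted p under 0.05, 4 did not pass and none was lower. At an unadjusted p under 0.05, with DESeq2 and with limma-voom, the count of lower members was 0 as well. The genes that rose were both coactivators, *Tead1*, *Tead2* and *Amotl1*. Over all tested genes 6.31% were called higher and 2.42% lower. The median log2 fold change of the 9 members was 0.50, compared with -0.03 over all tested genes. The members and the gene lists below were chosen with earlier results of these data known. Their comparison with all genes is therefore a description and not a test of the pathway. In 3 members (*Yap1*, *Wwtr1* and *Amotl1*) every *Neuid* KD library lay above every control library, which held for 4.13% of all tested genes. The reverse, every *Neuid* KD library below every control library, held for no member and for 1.57% of all tested genes. With upper quartile scaling the balance over all genes shifted from 1235 higher and 473 lower to 1049 higher and 1259 lower, and the same number of members, 5, was called higher.

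**Figure D1:**
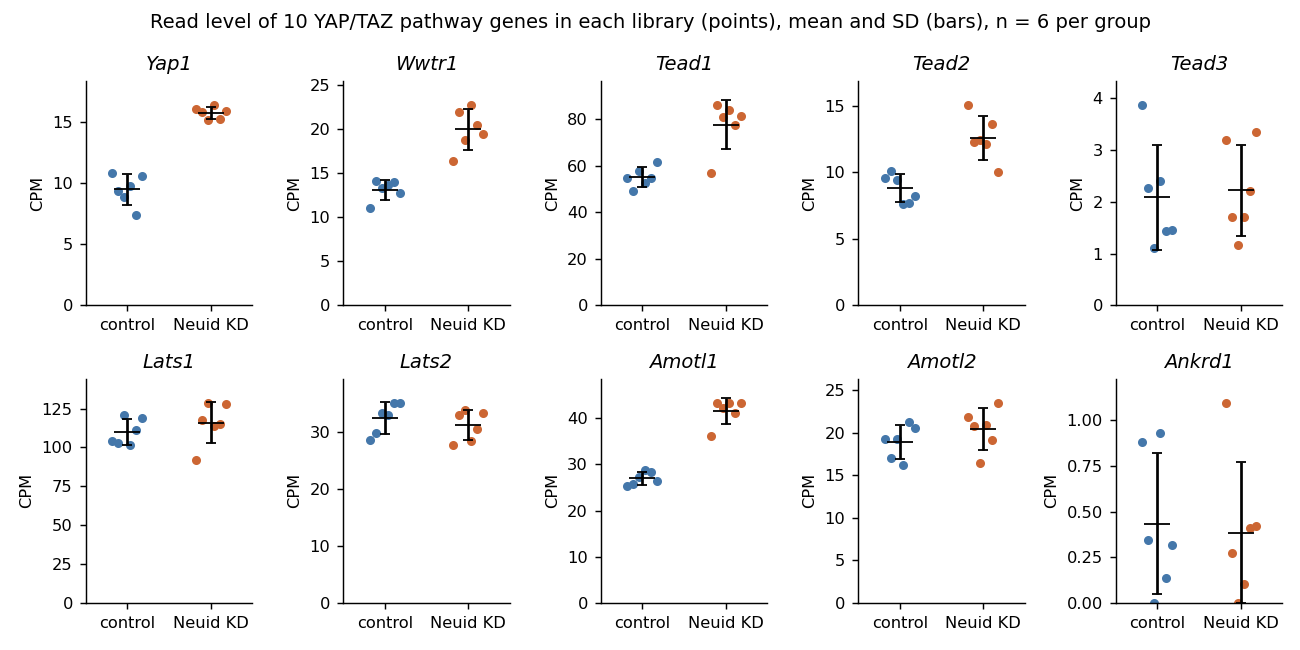
Read level of each of the 10 genes, in TMM-scaled CPM on a linear axis from 0, in the 6 control and 6 *Neuid* KD libraries. Points are libraries and bars are the mean and SD. *Yap1*, *Wwtr1* and *Amotl1* do not overlap between groups, *Tead1* overlaps through 1 *Neuid* KD library at 56.6 CPM, and *Lats1*, *Lats2*, *Amotl2*, *Tead3* and *Ankrd1* cover like ranges in both groups.

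Both coactivators rose. *Yap1* (ENSMUSG00000053110, chromosome 9, 7931999 to 8004596, minus strand, GRCm38) encodes YAP, which carries no DNA-binding domain of its own and works through TEAD factors. In control its level was 7.40, 9.57 and 10.8 CPM (lowest, median, highest) and in *Neuid* KD 15.2, 15.8 and 16.4 CPM. The *Neuid* KD libraries lay closer together (SD 0.477 CPM) than the control libraries (SD 1.25 CPM), and the groups were well apart. The increase was 1.67-fold (log2 fold change 0.74, SE 0.0777, edgeR adjusted p = 3.83e-06). It rested on 160 to 468 reads per library. A processed transcript on the opposite strand, Gm20416, shares 116 exonic bases with *Yap1*, and the strand setting of the counting is not given in the sources used here.

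*Wwtr1* (ENSMUSG00000027803, chromosome 3, 57455649 to 57575910, minus strand) encodes TAZ, the paralog of YAP. Its level was 11.0, 13.5 and 14.1 CPM in the control group and 16.4, 20.0 and 22.8 CPM in *Neuid* KD (lowest, median, highest). All 6 *Neuid* KD libraries were above the control range, the lowest being *Neuid* KD 1. The increase was 1.53-fold (log2 fold change 0.62, SE 0.0794, edgeR adjusted p = 3.75e-05). The call was lost with offsets for GC content and length smoothed over all genes, where the log2 fold change was 0.67 with a wider error (SE 0.191, adjusted p = 0.0953), and was made again when the offsets were smoothed over genes of at least 5 CPM, an alternative added after the data had been seen. The cause was not tested.

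The read ratio of the 2 coactivators within a library needs no scaling between libraries. The log2 ratio of *Yap1* to *Wwtr1* was -0.48 ± 0.305 in control and -0.34 ± 0.170 in *Neuid* KD (SD, n = 6 each). The difference of 0.14 had a 95% interval of -0.18 to 0.46 and did not pass a two-sided exact permutation test over the arrangements of the 12 libraries (p = 0.362, Benjamini-Hochberg adjusted over 6 paralog pairs 0.475). The interval leaves room for the coactivators to have changed by unequal amounts in either direction.

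The TEAD factors are the DNA-binding partners of YAP and TAZ, and their genes did not all behave alike. *Tead1* (ENSMUSG00000055320, chromosome 7, 112679318 to 112906807, plus strand) had the most reads of the TEAD genes. Its level was 49.1, 54.8 and 61.5 CPM in the control group and 56.6, 80.9 and 86.0 CPM in *Neuid* KD (lowest, median, highest). The other 5 *Neuid* KD libraries started at 77.2 CPM, above every control library, and only *Neuid* KD 1 fell into the control range. The increase was 1.42-fold (log2 fold change 0.50, SE 0.0838, edgeR adjusted p = 5.75e-04). It was 0.41 among the libraries with at least 100 CPM of background reads and 0.54 among those with less, and its call was lost with GC and length offsets over all genes, at a log2 fold change of 0.48 with a wider error (SE 0.151, adjusted p = 0.153).

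*Tead2* (ENSMUSG00000030796, chromosome 7, 45215753 to 45233644, plus strand) is known for its expression in the embryo and in neural progenitors. It was at 7.65, 8.82 and 10.1 CPM in the control group and at 10.05, 12.4 and 15.1 CPM in *Neuid* KD (lowest, median, highest). The ranges touched only between *Neuid* KD 6 (10.05 CPM) and control 2 (10.12 CPM). The increase was 1.42-fold (log2 fold change 0.51, SE 0.096, edgeR adjusted p = 0.00175). *Cd37*, on the opposite strand, shares 13 exonic bases with it. The changes of *Tead1* and *Tead2* were both close to 0.5 on the log2 scale, and the number of members called past that fold moved between 3 and 5 with the method. With GC and length offsets over all genes the 2 members that dropped out were *Wwtr1* and *Tead1*, on their adjusted p. Over all tested genes 2.44% were called higher and 0.792% lower past that fold.

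*Tead3* (ENSMUSG00000002249, chromosome 17, 28331671 to 28350817, minus strand) had only 25 to 75 reads per library. Its level was 1.10, 1.86 and 3.87 CPM in the control group and 1.17, 1.96 and 3.35 CPM in *Neuid* KD. The ranges coincided (log2 fold change 0.09, SE 0.328, edgeR adjusted p = 0.935), and the 95% interval of the change, -0.61 to 0.78, includes changes as large as those of *Tead1* and *Tead2*. The highest values were in control 1, *Neuid* KD 6 and *Neuid* KD 1, which had between 333 and 667 CPM of background reads. Over the 12 libraries its deviations from the group means followed those of the background reads with Pearson r = 0.899, and the part of these reads in its level was not tested. *Tead4*, the remaining member of the family and no part of the 10, had 4 to 32 reads per library (log2 fold change -0.20, SE 0.632, adjusted p = 0.92).

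The ratios within the TEAD family did not pass the test. The log2 ratio of *Tead1* to *Tead2* was 2.65 ± 0.232 in control and 2.62 ± 0.387 in *Neuid* KD, a difference of -0.03 with a 95% interval of -0.44 to 0.38 (exact permutation p = 0.894). The ratios to *Tead3* differed by 0.36 for *Tead1* (exact permutation p = 0.396) and by 0.39 for *Tead2* (exact permutation p = 0.297), with intervals over 1.5 units wide. These intervals do not exclude an unequal change within the family.

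*Lats1* and *Lats2*, the kinases that phosphorylate YAP and TAZ, stayed within their spread. *Lats1* (ENSMUSG00000040021, chromosome 10, 7681214 to 7716460, plus strand) had the most reads of the 10 genes, with 101, 108 and 121 CPM in the control group and 92.0, 116 and 129 CPM in *Neuid* KD. The highest libraries of both groups stood near each other and the lowest was *Neuid* KD 1. Its log2 fold change was 0.08 (SE 0.0744, edgeR adjusted p = 0.705), with a 95% interval of -0.08 to 0.24. *Lats2* (ENSMUSG00000021959, chromosome 14, 57689662 to 57758388, minus strand), which is both a kinase of YAP and a gene that YAP switches on, was at 28.5, 33.1 and 35.1 CPM in the control group and at 27.7, 31.7 and 33.9 CPM in *Neuid* KD. Its log2 fold change was -0.06 (SE 0.0667, edgeR adjusted p = 0.773), with a 95% interval of -0.20 to 0.08. Both intervals exclude the fitted increases of *Yap1*, *Wwtr1*, *Tead1*, *Tead2* and *Amotl1*.

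Reads of *Lats2* are partly ambiguous, because 2955 of its 6971 exonic bases are shared with Gm49361 on the same strand. That gene had 0 reads in all 12 libraries. The log2 ratio of *Lats1* to *Lats2* was 1.76 ± 0.0988 in control and 1.89 ± 0.0962 in *Neuid* KD (SD, n = 6 each). The difference of 0.13 (95% interval 0.005 to 0.256) had an exact permutation p of 0.0476 and did not pass after adjustment over the 6 pairs (0.143). Without *Neuid* KD 1 it was 0.16 and passed (adjusted exact permutation p = 0.039). In the other 15 of 16 alternatives it did not pass (adjusted permutation p up to 0.328).

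The angiomotins are scaffold proteins of cell junctions that bind YAP and TAZ and can hold them outside the nucleus. *Amotl1* (ENSMUSG00000013076, chromosome 9, 14541966 to 14645056, minus strand) had the smallest error of the members. Its level was 25.2, 26.8 and 28.8 CPM in the control group and 36.1, 42.7 and 43.4 CPM in *Neuid* KD (lowest, median, highest). The groups were apart, and the other 5 *Neuid* KD libraries lay between 41.2 and 43.4 CPM while *Neuid* KD 1 was lower. The increase was 1.55-fold (log2 fold change 0.63, SE 0.054, edgeR adjusted p = 2.96e-07).

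*Amotl2* (ENSMUSG00000032531, chromosome 9, 102716672 to 102733418, plus strand) is also among the genes that YAP is known to switch on. Its level was 16.2, 19.3 and 21.3 CPM in the control group and 16.5, 20.9 and 23.6 CPM in *Neuid* KD, and the ranges overlapped over most of their length. Its log2 fold change was 0.11 (SE 0.0845, edgeR adjusted p = 0.609), with a 95% interval of -0.07 to 0.29. The parent of the family, *Amot*, rose from 49.8 ± 3.46 to 70.1 ± 3.80 CPM (SD, n = 6 each; log2 fold change 0.49, SE 0.0547, edgeR adjusted p = 6.5e-06).

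*Amotl1* and *Amotl2* parted in expression, the only pair of the 6 to pass the test. The log2 ratio of *Amotl1* to *Amotl2* was 0.51 ± 0.176 in control, with libraries from 0.36 to 0.83, and 1.03 ± 0.214 in *Neuid* KD, with libraries from 0.72 to 1.35 (SD, n = 6 each). The difference of 0.51 (95% interval 0.26 to 0.76) had a two-sided exact permutation p of 0.00433, or 0.026 after adjustment over the 6 pairs. Only control 4 stood inside the *Neuid* KD range. The difference was 0.36 among libraries with at least 100 CPM of background and 0.69 among those with less. Without control 1, 2, 3, 5 or 6 it was between 0.48 and 0.53 with an adjusted exact permutation p of 0.052 each time.

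**Figure D2:**
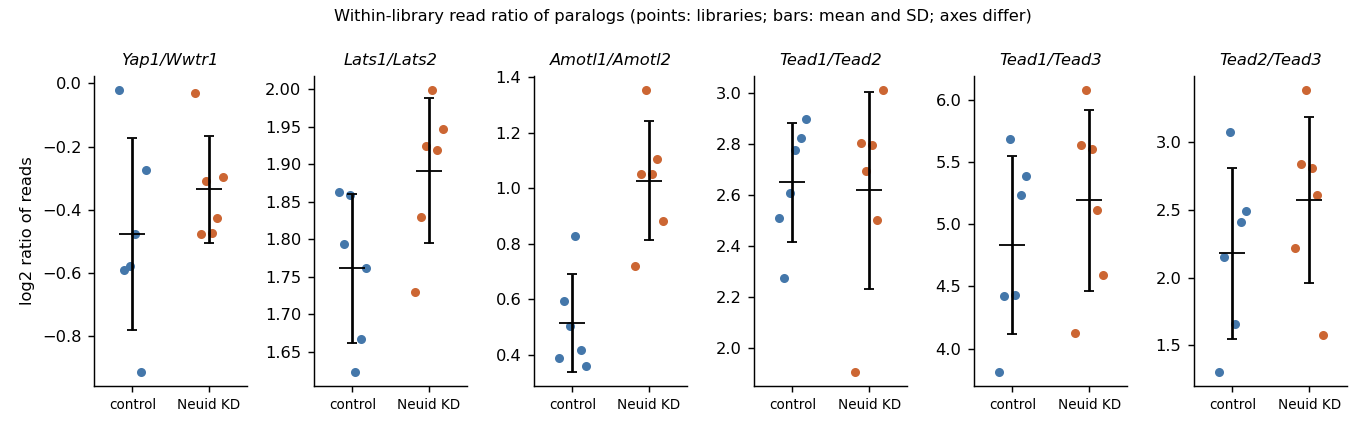
Log2 ratio of reads of 2 paralogs within each library, one panel per pair with its own axis, points for libraries and bars for mean and SD (n = 6 per group). The *Amotl1*/*Amotl2* ratio goes from a mean of 0.51 in control to 1.03 in *Neuid* KD, with control 4 (0.83) inside the *Neuid* KD range. The groups overlap in every pair, and the other 5 pairs do not pass the test adjusted over the pairs.

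*Ankrd1* (ENSMUSG00000024803, chromosome 19, 36111961 to 36120099, minus strand), a cardiac ankyrin repeat protein gene and one of the standard readouts of YAP activity, was close to absent. It had 0 to 20 reads per library and did not pass the filter, so it has no test. Its level was 0, 0.329 and 0.928 CPM in the control group and 0, 0.341 and 1.10 CPM in *Neuid* KD (lowest, median, highest). The libraries at 0 were control 3 and *Neuid* KD 3, where a count of 0 allows up to 3 reads, or 0.097 and 0.133 CPM. These limits cover counting error only. The 3 highest values were in *Neuid* KD 1, control 4 and control 1, which also had the 3 highest background levels (617, 592 and 667 CPM), and the part of background reads was not tested.

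Levels can be compared between genes only per length. In RPKM (CPM per kilobase of exon), *Lats1* was first in control (15.1 ± 1.17, SD, n = 6) and *Ankrd1* last (0.150 ± 0.133). Between them came *Lats2* (4.65 ± 0.394), *Tead1* (4.06 ± 0.312), *Amotl2* (3.01 ± 0.313), *Wwtr1* (2.75 ± 0.241), *Amotl1* (2.68 ± 0.141), *Tead2* (1.84 ± 0.220), *Yap1* (1.02 ± 0.135) and *Tead3* (0.311 ± 0.151). Neighbours in this order whose library ranges overlapped were *Lats2* with *Tead1*, *Amotl2* with *Wwtr1*, *Wwtr1* with *Amotl1*, and *Tead3* with *Ankrd1*. The place of *Lats2* is uncertain in both groups. Its RPKM divide by all its exonic bases, of which 2955 are shared with Gm49361. Since Gm49361 had 0 reads, no read was counted for both genes. Whether shared reads were left out is not known. If they were, the RPKM of *Lats2* are too low and its place would be higher, which was not tested. In *Neuid* KD *Tead1* (5.72 ± 0.790 RPKM) stood next to *Lats1* and was followed by *Lats2* (4.46 ± 0.379 RPKM), and *Wwtr1* (4.18 ± 0.481 RPKM) and *Amotl1* (4.13 ± 0.278 RPKM) came before *Amotl2* (3.26 ± 0.387 RPKM), though from *Tead1* down to *Tead2* each gene's range overlapped that of the next. *Yap1*, at 1.70 ± 0.0515 RPKM, kept its place and stood clear of both neighbours.

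**Figure D3:**
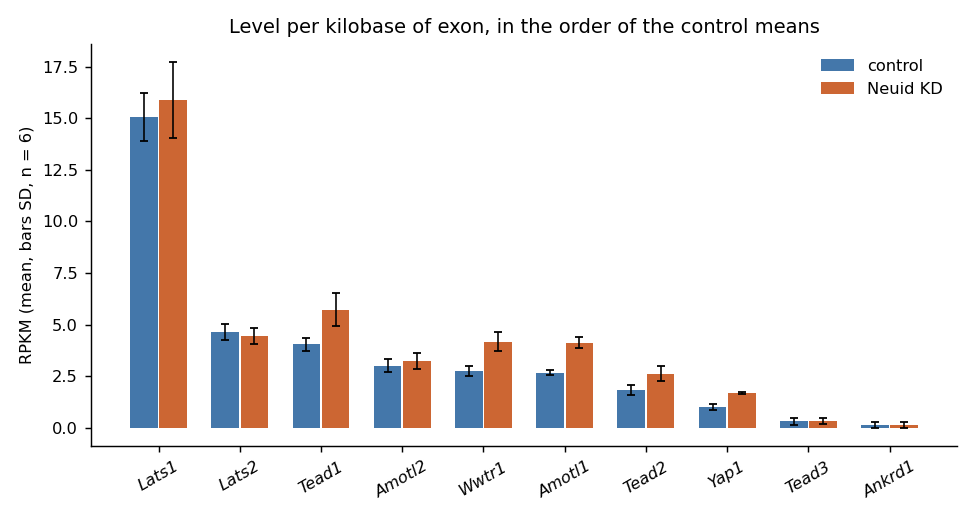
Mean level per kilobase of exon (RPKM, linear axis from 0) of the 10 genes in control and *Neuid* KD libraries, ordered by the control mean, with SD bars (n = 6 per group). *Lats1* is highest in both groups, near 15.1 and 15.9 RPKM, and *Tead3* and *Ankrd1* are the lowest in both.

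Of 29 other genes of the pathway, 6 were higher at adjusted p under 0.05 and none lower. Their median log2 fold change was 0.05 (all genes: 6.31% higher, 2.42% lower, median -0.03). At an unadjusted p under 0.05 the pathway counts were 9 and 1, with DESeq2 7 and 1, and with limma-voom 6 and 0. The MST kinases, which start the cascade, did not pass (*Stk3* 0.10, SE 0.0564, edgeR adjusted p = 0.393; *Stk4* 0.01, SE 0.0558, edgeR adjusted p = 0.954). Neither did their scaffold *Sav1* (0.10, SE 0.0854), nor *Nf2*, the gene of the upstream activator Merlin (0.12, SE 0.0628). *Mob1a*, a LATS coactivator, rose from 22.5 ± 1.63 to 31.1 ± 1.77 CPM (SD, n = 6 each), which gave a log2 fold change of 0.46 (SE 0.0576, edgeR adjusted p = 2.58e-05) without overlap between groups. Its paralog *Mob1b* had a log2 fold change of 0.15 (SE 0.061, edgeR adjusted p = 0.19), which passed without *Neuid* KD 1 (adjusted p = 0.0417). A difference between the MOB1 genes was not tested.

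*Map4k4*, a kinase that can act on LATS in parallel to MST, rose from 373 ± 24.2 to 471 ± 30.9 CPM (SD, n = 6 each), which gave a log2 fold change of 0.34 (SE 0.0557, edgeR adjusted p = 5.01e-04). *Stk38*, which encodes the LATS-related kinase NDR1, rose by 0.19 (SE 0.0434, adjusted p = 0.0096). Among the cofactors, *Limd1*, an AJUBA family gene whose protein binds LATS, rose from 10.2 ± 1.29 to 14.9 ± 2.00 CPM, which gave a log2 fold change of 0.55 (SE 0.096, edgeR adjusted p = 9.28e-04). *Limd1* was the only gene of the 29 called with a log2 fold change above 0.5. *Vgll4*, which competes with YAP for TEAD, had a log2 fold change of 0.23 (SE 0.0699, adjusted p = 0.0483). The calls of *Stk38* and *Vgll4* were lost without single libraries, with adjusted p up to 0.0793 and 0.184.

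**Figure D4:**
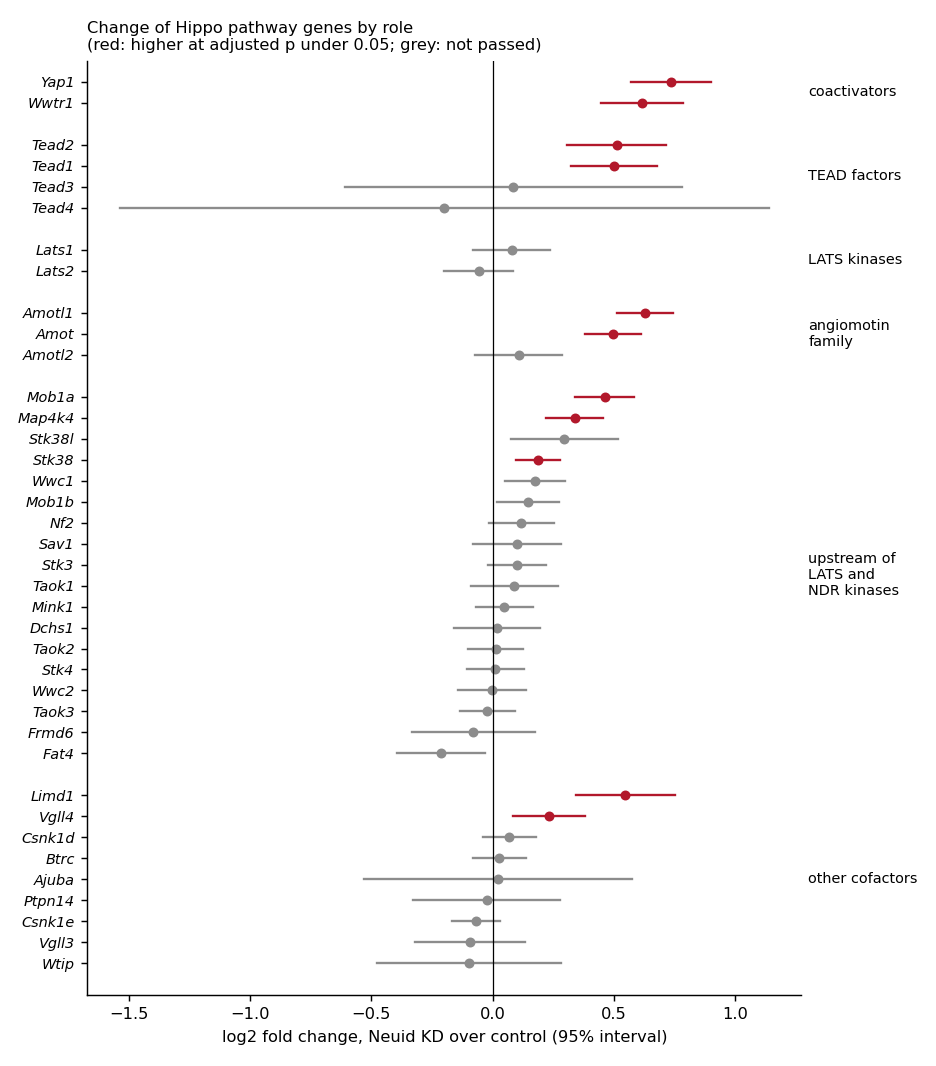
Log2 fold change (*Neuid* KD over control) with its 95% interval for the tested members and the 29 other pathway genes, grouped by role, with genes at adjusted p under 0.05 in red. Both coactivators, *Tead1*, *Tead2*, *Amotl1* and *Amot* lie to the right of 0, while the LATS kinases, *Stk3*, *Stk4*, *Sav1* and *Nf2* have intervals that include 0.

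A list of 22 genes known as YAP and TAZ targets, 3 of them also members (*Lats2*, *Amotl2* and *Ankrd1*), moved in both directions. Of the 21 tested, 7 were higher, 2 lower and 12 did not pass, and the median log2 fold change was -0.02 (all genes: 6.31% higher, 2.42% lower, median -0.03). The usual pair of readouts, the matricellular genes *Ccn1* and *Ccn2*, did not pass. *Ccn1* averaged 5.30 ± 1.22 CPM in control libraries against 5.78 ± 0.481 CPM after *Neuid* KD (log2 fold change 0.12, SE 0.135, edgeR adjusted p = 0.751). *Ccn2* was at 2.26 ± 0.940 and 1.37 ± 0.483 CPM (log2 fold change -0.73, SE 0.325, edgeR adjusted p = 0.231), with 20 to 70 reads per library. Its highest control values, 3.61 and 2.78 CPM, were in control 1 and control 4, which had the most background reads of that group. In *Neuid* KD the highest was *Neuid* KD 5, which did not have the most. Over the alternatives the log2 fold change of *Ccn2* lay between -0.94 and -0.16, and the part of background reads was not tested.

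*Rbms3*, an RNA-binding protein gene, and *Axl*, a receptor tyrosine kinase for GAS6, had fitted increases of similar size, and their order turned between alternatives. The level of *Rbms3* was 8.07, 9.33 and 10.9 CPM in the control group and 18.8, 21.6 and 25.9 CPM in *Neuid* KD (lowest, median, highest), and no library of one group reached the other. This was a 2.33-fold difference (log2 fold change 1.22, SE 0.0867, edgeR adjusted p = 2.69e-08). *Axl* was at 8.36, 9.49 and 12.7 CPM in the control group and at 21.98, 23.2 and 24.7 CPM in *Neuid* KD. It was 2.30-fold higher, again without overlap (log2 fold change 1.20, SE 0.0837, edgeR adjusted p = 2.12e-08). *F3*, which encodes the coagulation starter tissue factor and is an astrocyte gene in brain, went from 2.94 ± 0.408 to 6.17 ± 1.06 CPM (log2 fold change 1.07, SE 0.143, edgeR adjusted p = 5.41e-05).

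*Ccdc80*, a matrix protein gene, rose by 0.74 (SE 0.0875, adjusted p = 1.32e-05), and *Tgfb2*, the ligand TGF-beta 2, by 0.38 (SE 0.0778, adjusted p = 0.00399). *Fjx1* (0.28, adjusted p = 0.0171) was called too, but not without any 1 of 8 of the 12 libraries. The remaining call was *Asap1* (0.24, adjusted p = 0.0359), an Arf GTPase-activating protein gene that the naming rule did not take and that was added after its value was seen. Lower in *Neuid* KD were *Igfbp3*, an IGF-binding protein gene, which fell by 0.41 (SE 0.0477, adjusted p = 1.21e-05), and *Crim1*, a BMP-binding membrane protein gene, which fell by 0.34 (SE 0.0714, adjusted p = 0.00443). Both were without overlap between groups. With GC and length offsets over all genes the calls of *Igfbp3* (edgeR adjusted p = 0.916), *Crim1* (0.939) and *Tgfb2* (0.438) were lost. The call of *Crim1* was also lost without the filter on low counts (edgeR adjusted p = 0.093). That of *Tgfb2* was lost among libraries with at least 100 CPM of background reads (edgeR adjusted p = 0.085). Of the 15 list genes with a promoter window, 7 held the TEAD motif letters, compared with 15% of tested genes with a window. Among the 7 were *Lats2*, *Amotl2* and *Ankrd1*, already counted with the members.

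**Figure D5:**
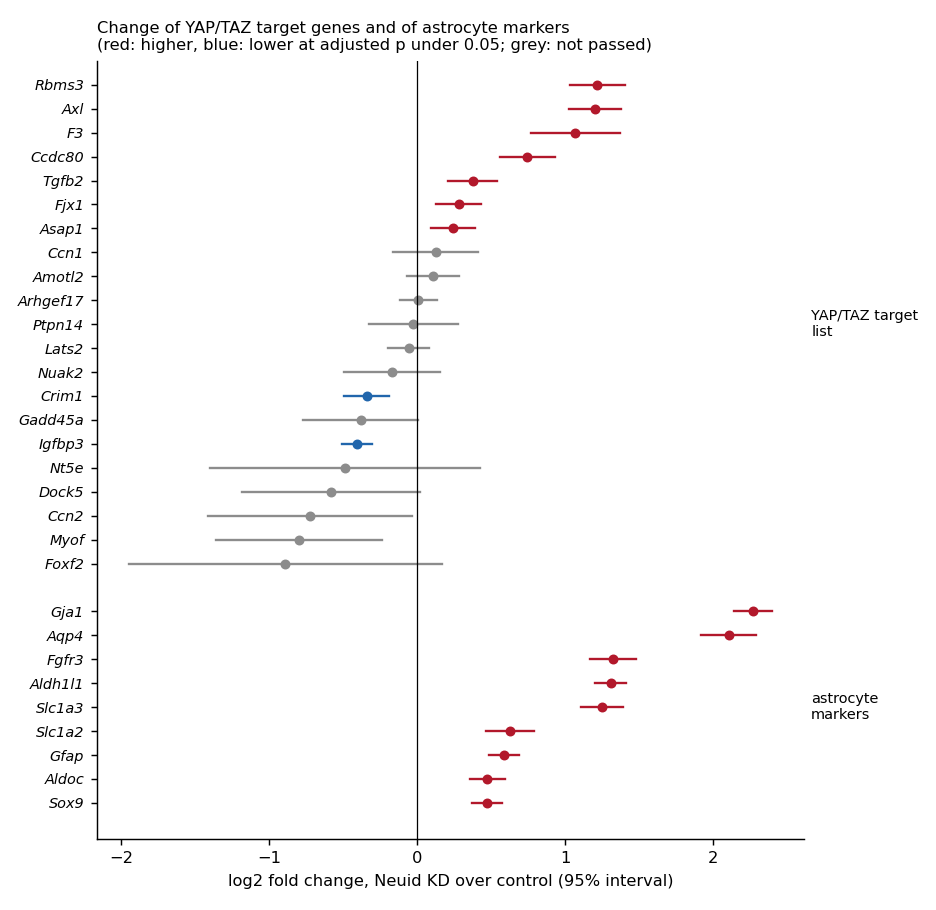
Log2 fold change (*Neuid* KD over control) with its 95% interval for the 21 tested genes of the YAP/TAZ target list and for the 9 tested astrocyte markers, with genes at adjusted p under 0.05 in red (higher) or blue (lower). The target genes spread to both sides of 0, from 1.22 (*Rbms3*) to -0.89 (*Foxf2*, not passed). *Foxf2* had only 6 to 35 reads per library and an interval from -1.95 to 0.17, and the lowest called target is *Igfbp3* at -0.41. All 9 astrocyte markers lie between 0.47 and 2.27.

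The genes most like *Yap1*, *Wwtr1* and *Lats2* in pattern were found among 10713 genes of at least 5 CPM, by Pearson's r of log2 CPM over the 12 libraries, which share the group difference and each library's depth. Most like *Yap1* were *Mertk* (r = 0.984), *Lpp* (0.98), *Gpc5* (0.977), *Gabrg1* (0.974) and *Klf15* (0.971), with log2 fold changes from 0.51 for *Klf15* to 1.76 for *Mertk*. The minimum of 5 CPM was set on the mean of all 12 libraries, and *Mertk*, *Gpc5* and *Gabrg1* passed it only through *Neuid* KD, since their control means were 2.70, 3.36 and 3.06 CPM, so their likeness to a gene that rose is in part selected. Most like *Wwtr1* were *Mpdz* (0.986), *Cacna2d3* (0.984), *Erbb4* (0.983), *Ctnna2* (0.976) and *Frmpd4* (0.975), with log2 fold changes from 0.43 to 0.80. No gene was in both lists. For *Lats2*, which did not pass the test, the closest genes had lower r, led by *Nufip1* (0.906) and followed by *Rps6ka6* (0.875), *Adcy3* (0.871), *Taf15* (0.864) and *Atmin* (0.854).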

How the data were processed

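RNA of 6 control and 6 *Neuid* KD libraries was sequenced with a stranded total RNA kit for low input. Per the submitters' processing notes and methods, the authors converted base calls with bcl2fastq, aligned reads to mm10 (GRCm38) with STAR, counted them with featureCounts and deposited raw counts per gene, without normalization. The strand setting is not given in the sources used here, and the study's own test was DESeq2 with RUVseq.

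From these counts, TMM scaling, the filter on low counts and the quasi-likelihood test were run in edgeR 4.0.16 under R 4.3.3 over all genes, with design ~ group and Benjamini-Hochberg adjustment. A gene was called at adjusted p under 0.05, and separately with an absolute log2 fold change above 0.5. CPM are TMM-scaled, apart from the limits given for *Ankrd1*. RPKM divide the scaled CPM by the union exon length of the GENCODE annotation, which had 55230 of the 55471 genes. Paralog ratios used reads plus 0.5 and an exact two-sided permutation test over 6 pairs. Correlations used log2 CPM with a prior count of 2. Intervals and limits cover counting or library spread only. On simulated data for this comparison (18233 genes), 70.3% of genes changed by a fold of 2 and 54.2% of those changed by 1.5 were recovered, with 0.0222% false calls. Alternatives used DESeq2 1.42.0, limma 3.58.1, 1 RUVs factor, the background reads as a covariate, either background class alone, upper quartile scaling, no filter, GC and length offsets, a replicate block and leaving out each library.

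The text names all 10 members, Gm10419, a set of core pathway and target genes (*Stk3*, *Stk4*, *Sav1*, *Mob1a*, *Mob1b*, *Nf2*, *Amot*, *Tead4*, *Ccn1*, *Ccn2*), per list the called genes up to the 8 with the largest change, and for *Yap1*, *Wwtr1* and *Lats2* the 5 genes with the highest Pearson r. The members, the lists and the background measure were chosen with earlier results of these data known. Promoter windows were read from RefSeq by symbol (9 of 10 members matched). No protein was used here.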

Additional observations from a re-analysis of the deposited data

Results flagged for a closer look

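In 5 genes the highest or lowest *Neuid* KD library stood further from the others than Dixon's 95% limit for 6 samples allows, out of 78 groups of 6 libraries looked at, and chance alone flags about 1 group in 20. In 4 of them the library was *Neuid* KD 1, the shallowest, and it was the lowest each time. *Tead1* was at 56.58 CPM there and between 77.2 and 86.0 CPM in the other 5 *Neuid* KD libraries. *Amotl1* was at 36.12 CPM against 41.2 to 43.4 CPM, *Tgfb2* at 29.72 CPM against 34.9 to 37.1 CPM, and *Crim1* at 85.21 CPM against 109.5 to 120.3 CPM. In the remaining gene, *Sav1*, *Neuid* KD 5 was the highest with 17.22 CPM against 13.6 to 14.7 CPM. Without *Neuid* KD 1 the calls of *Tead1*, *Amotl1*, *Tgfb2* and *Crim1* stood.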

How the results depend on the processing

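Of the 5 members called higher, *Yap1*, *Tead2* and *Amotl1* were called under all 24 alternatives, and *Wwtr1* and *Tead1* under all but GC and length offsets, where 3 members were called. Members called above a log2 fold change of 0.5 numbered 3 under upper quartile scaling, DESeq2, limma-voom and both kinds of GC and length offsets, and 3 to 5 without single libraries. Pathway genes called higher numbered 3 without the filter and 0 with GC and length offsets, and those called lower 2 with upper quartile scaling and with offsets from genes of at least 5 CPM, 1 with DESeq2, the RUVs factor, the background covariate, the libraries under 100 CPM and the block with background, and 0 to 1 without single libraries. Target genes called higher numbered 4 with GC and length offsets, and those called lower 1 without the filter, 0 with GC and length offsets, 4 with the RUVs factor, the background covariate or the block with background, and 2 to 4 without single libraries (4 without *Neuid* KD 1). All genes called higher numbered 711 without the filter, 651 in libraries of at least 100 CPM, 396 with GC and length offsets and 822 to 1208 without single libraries (lowest without *Neuid* KD 2), and those called lower 1259, 1004, 229, 982, 987, 205, 799, 103, 982 and 1121 under upper quartile scaling, DESeq2, no filter, RUVs, background covariate, at least 100 CPM, under 100 CPM, offsets, block with background and offsets from genes of at least 5 CPM, and 355 to 780 without single libraries (highest without *Neuid* KD 1). Against 1235 higher and 473 lower, the split was 1496 to 1004 with DESeq2, 1738 to 982 with the RUVs factor and 1107 to 1121 with offsets from genes of at least 5 CPM. Directions turned only in genes that did not pass: *Amotl2* -0.083 and *Sav1* -0.17 in libraries under 100 CPM, *Tead3* -0.11 to 0.35 without single libraries, *Tead1* to *Tead2* -0.11 to 0.11 likewise, *Tead4* 0.0076 with limma-voom, 0.27 with RUVs, 0.17 with the background covariate, 0.78 under 100 CPM, 0.24 in the block with background and -0.56 to 0.11 without single libraries, and *Stk4* -0.0495 (upper quartile), -0.007 (DESeq2), -0.0081 (RUVs), -0.0022 (background covariate), -0.0121 and -0.029 (at least and under 100 CPM), -0.0033 (block with background), -0.0514 (offsets from genes of at least 5 CPM) and -0.028 to 0.036 without single libraries. The *Amotl1* to *Amotl2* difference was 0.45 to 0.58 and that of *Lats1* to *Lats2* 0.10 to 0.16 without single libraries. The causes were not tested. The block with background and the offsets from genes of at least 5 CPM were chosen after seeing the data.

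Deviations of libraries with the same number went together for numbers 1 (r = 0.774) and 3 (r = 0.751). For the other numbers r lay between -0.637 and 0.0037. Control 1 and *Neuid* KD 1 also had like background reads (667 and 617 CPM), as did control 3 and *Neuid* KD 3 (26.7 and 27.1 CPM). The check therefore cannot tell whether the numbers pair the libraries, and the main test did not pair them. With a replicate block 5 members were called higher, over all genes 1299 were higher and 542 lower, *Vgll4* lost its call (adjusted p = 0.078), and an exact sign-flip permutation test of the *Amotl1* to *Amotl2* difference of 0.51 had an adjusted p of 0.188. Its raw p of 0.03125 is the smallest that 6 pairs can give, so this test could hardly pass and says nothing about stability. *Tead3*, *Tead4* and *Ankrd1* had at most 75 reads in a library, and the part of depth in their spread was not tested.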
